A study of Mus musculus with 24 samples.

Results

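Polycomb group proteins silence genes through chromatin, and 9 of their genes are described here: Ezh1, Ezh2, Eed and Suz12 of Polycomb repressive complex 2 (PRC2), and Bmi1, Ring1, Cbx2, Cbx7 and Cbx8 of Polycomb repressive complex 1 (PRC1). They were taken by name, as 9 of 18193 genes, with every probe set that the array annotation ties to 1 gene only, which gave 23 of 34945 probe sets. A probe set is a group of short DNA probes on the array that reads 1 transcript region.

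PRC2 places methyl groups on lysine 27 of histone H3, and PRC1 recognises that mark through its CBX subunits and attaches ubiquitin to histone H2A. Ezh2 and Ezh1 encode the alternative catalytic subunits of PRC2, and Eed and Suz12 encode subunits without which the enzyme is not active. In B cells Ezh2 is known for its high level in dividing cells, and the locus Cdkn2a, which encodes inhibitors of the cell cycle, is a classic target of both complexes.

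The samples were 12 primary B-cell lymphomas of Eμ-Myc mice, in which an immunoglobulin enhancer drives the Myc transgene in the B lineage, each measured once untreated and once after 5 days with 0.05 µg/ml Adriamycin (ADR, doxorubicin, a drug that damages DNA). All 24 samples, untreated ones included, carried retroviral Bcl2, which blocks apoptosis, had passed puromycin selection and grew on NIH 3T3 fibroblasts irradiated with 20 Gy. The labels used here state no strain, sex or age of the mice. For senescence, a lasting arrest of division, 11 treated arrays carry the label TIS and that of lymphoma 1467 the label yes. Values are log2 expression from Affymetrix arrays, changes are ADR minus untreated within a lymphoma, and "called" means an adjusted p under 0.05 by limma with the lymphoma as a block, adjusted over all 34945 probe sets by the Benjamini-Hochberg method.

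Markers of the lymphoma cells and of other cell types were counted first. Of the B cell markers 9 of 10 were measured, all of them above the highest array median (4.47), which is taken here as the bound of the weak range, and their mean level lay between 9.11 and 10.04 untreated and between 8.43 and 10.58 with ADR. Of these 9, 3 were called lower: Cd22 (log2 change -1.33, limma adjusted p = 0.000191, lower in 12 of 12 lymphomas), Cd79a (-0.80, adjusted p = 0.0385) and Ebf1 (-0.56, adjusted p = 0.0293), the last chosen after its value was seen. The other 6 were not called, where 12.5% of all genes were called lower and 13.4% higher. Of the 9 changes 3 were above 0, their median was -0.21, and the mean level was higher with ADR in 3 of 12 lymphomas. Cd22, Cd79a and Ebf1 fell in the same arrays as Ezh2, Suz12 and Cbx2, and their part in those results was not tested. Fibroblast markers were called higher in 21 of 25 cases, and their mean level went from between 4.76 and 5.69 to between 5.19 and 9.38 (Pdgfrb and Lum stayed in the weak range). Macrophage markers were called higher in 12 of 18 cases, with a mean level of 4.99 to 8.04 untreated and 6.07 to 8.92 with ADR (Mrc1, Cd163 and C1qa in the weak range). Neutrophil markers were called higher in 3 of 10 cases, among them Lcn2 (log2 change 2.77) and Mmp8 (2.46), and their mean level went from between 3.92 and 5.20 to between 4.17 and 6.05, higher in 12 of 12 lymphomas, with 6 of the 10 in the weak range. T and NK cell markers were called higher in 1 of 8 cases (Gzma, in the weak range), a share near the 13.4% of all genes. Their mean levels were 4.05 to 4.60 untreated and 4.00 to 4.42 with ADR, with 5 of the 8 in the weak range. Proliferation genes were called lower in 23 of 23 cases, with a mean level of 8.35 to 9.71 untreated and 5.29 to 8.46 with ADR. In such bulk RNA, fewer cells of a type and less RNA per cell cannot be told apart.

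The promoters of the PRC2 genes are shown as a description, chosen with the changes known. Ezh2 and Suz12 are the members with the letters of an E2F element, among the 8 for which a promoter window could be searched. Cbx2, which fell more than Suz12 (log2 change -0.72 against -0.67), is not among these 8. Whether the letters bear on the changes was not tested. E2F factors drive genes of DNA replication. RefSeq promoter windows (GRCm38.p6, 250 bases before to 50 after the start) were matched for 8 of the 9 genes, all but Cbx2. Start means the transcript start on which the window of a gene was set. For Ezh2 and Cbx7 this start lies inside the annotated gene (chr6:47530274-47595270 and chr15:79915804-79971143). Windows at the annotated outer ends of these genes were not searched. They were searched on both strands for 4 spellings of the E2F element (TTTCCCGC, TTTCGCGC, TTTGCCGC and TTTGGCGC) and for the cell cycle element CHR (TTTGAA, which reads TTCAAA on the other strand); none of the 4 spellings contains the CHR letters. Each stretch runs 5′ to 3′ on the strand of its gene, with matched letters in capitals. Ezh2 is shown from position -100 relative to its start (chr6:47595020-47595130, minus strand), Suz12 (chr11:79992856-79992966, plus strand) and Eed (chr7:89981116-89981226, minus strand) from 250 bases before theirs, and Ezh1, in which neither element was found, over a stretch of equal length that ends at its start (chr11:101226464-101226574, minus strand).
Ezh2: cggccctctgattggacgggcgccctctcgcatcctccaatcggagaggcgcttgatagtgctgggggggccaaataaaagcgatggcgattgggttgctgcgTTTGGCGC
Suz12: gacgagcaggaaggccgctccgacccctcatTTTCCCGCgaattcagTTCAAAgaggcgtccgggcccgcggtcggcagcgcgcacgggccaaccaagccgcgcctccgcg
Eed: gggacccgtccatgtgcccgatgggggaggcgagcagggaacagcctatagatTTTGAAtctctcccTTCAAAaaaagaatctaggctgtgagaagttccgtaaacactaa
Ezh1: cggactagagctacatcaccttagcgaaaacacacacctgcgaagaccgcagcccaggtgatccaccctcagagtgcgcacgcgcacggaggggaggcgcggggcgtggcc
The E2F letters of Ezh2 began at base 4 counted from the start of its window, which is inside the annotated gene. Those of Suz12 lay 219 bases before the start. E2F letters were thus in 2 of 8 member windows, against 2.26% of all 32851 promoter windows and 8 of 19 windows of the replication genes. CHR letters were in 3 of 8 (Eed, Suz12 and Cbx7), against 17.9% of all windows and 16 of 21 windows of the proliferation genes. The Cbx7 match (chr15:79932695-79932700) belongs to the start inside that gene. A match describes the letters only and shows no binding.

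By the strongest probe set of each gene, PRC2 genes changed in both directions after ADR: Ezh2, Suz12 and Eed fell, and Ezh1 rose. The rise of Ezh1 was called in 1 of its 4 probe sets. Among PRC1 genes Cbx2 fell, while Bmi1, Ring1, Cbx7 and Cbx8 did not pass the test. Where a gene has several probe sets, the one with the strongest mean signal stands for it unless another is named. So 4 of 9 genes were called lower and 1 higher, where 12.5% of all 18193 genes were called lower and 13.4% higher (25.9% in either direction). By these probe sets none of the 9 genes separated its groups completely, which 0.264% of genes did with all treated values lower and 0.033% with all treated values higher. The median change was -0.48 over the 4 PRC2 genes, -0.17 over the 5 PRC1 genes and -0.01 over all genes.

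Ezh2, the main catalytic subunit of PRC2 in dividing cells, had the largest fall. Untreated, its level ranged from 9.49 to 10.45 with a median of 9.97. With ADR it ranged from 7.79 to 9.79 with a median of 8.32. The treated values of 11 lymphomas lay below the lowest untreated value; the exception was lymphoma 1570, at the top of the treated range. The mean went from 9.93 ± 0.30 to 8.51 ± 0.65 (SD, n = 12), a log2 change of -1.42 (SE 0.16, limma adjusted p = 4.9e-05), which is 2.68-fold lower with a 95% interval of 2.11 to 3.40. It was lower in 12 of 12 lymphomas, as were 4.17% of all genes, and only 0.918% of genes had a lower change. The fall ranged from -0.06 in lymphoma 1570 to -2.24 in 5766, and the spread between lymphomas was wider with ADR than before it. Without 1570 the change was -1.55.

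Suz12, the subunit that holds PRC2 together, fell less. Its level ranged from 9.55 to 10.27 untreated, with a median of 9.91, and from 8.31 to 9.88 with ADR, with a median of 9.13. The groups overlapped, with 9 of 12 treated values below the lowest untreated one. The log2 change was -0.67 (SE 0.10, limma adjusted p = 0.00047), 1.59-fold lower, and the level fell in 12 of 12 lymphomas, most in 5560 (-1.24) and least in 3802 (-0.10). Of its 6 probe sets 5 were called lower, with changes between -0.59 and -0.81, and the remaining one had -0.16 (limma adjusted p = 0.0656). One of the 5, 1452364_at, separated the groups completely, from 8.64 to 9.38 untreated and from 7.36 to 8.58 with ADR, as 0.238% of all probe sets did in that direction.

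Eed, the subunit that reads the methylated histone tail, had the smallest called fall. It ranged from 9.17 to 9.92 untreated (median 9.73) and from 8.92 to 9.93 with ADR (median 9.38). The ranges overlapped almost fully, yet 11 of 12 lymphomas were lower, all but 3802 with 0.03. The log2 change was -0.30 (SE 0.06, limma adjusted p = 0.00168), 1.23-fold lower. Its second probe set lay in the weak range in both groups (3.10 and 2.98) and was not called.

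Ezh1, the catalytic subunit that is also found in cells that do not divide, rose by its strongest probe set, 1449023_a_at. The level ranged from 6.09 to 7.72 untreated (median 6.87) and from 6.82 to 7.94 with ADR (median 7.42), so the groups overlapped. The log2 change was 0.49 (SE 0.13, limma adjusted p = 0.0114), 1.41-fold higher with a 95% interval of 1.17 to 1.70. It was higher in 9 of 12 lymphomas, most in 1570 (1.37); 1467, 2949 and 5560 were at -0.15, -0.18 and -0.02. The other 3 probe sets of Ezh1 did not show it. The one above the weak range, 1418290_a_at, went from 5.74 to 5.62 (log2 change -0.12, 95% interval -0.37 to 0.12), and both others lay at 3.26 or lower in both groups. The mean of the 4 probe sets had a change of 0.06 (limma adjusted p = 0.466). In a fit without the pairing of arrays by lymphoma (no replicate block) the 4 falls were still called, with 8.3% of all genes lower and 8.42% higher, and the Ezh1 call was lost (limma adjusted p = 0.0526).

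**Figure D1:**
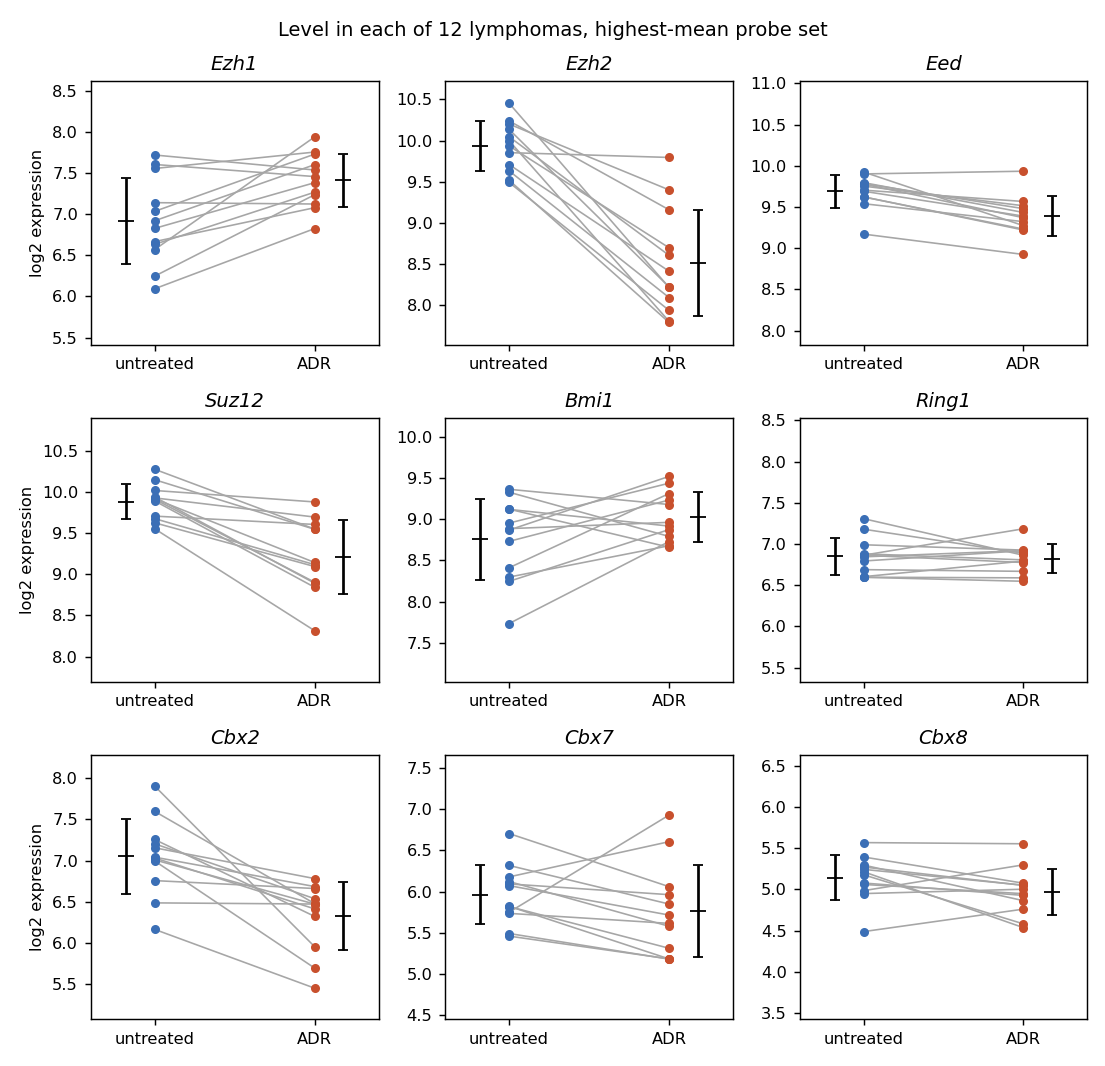
Log2 expression of each of the 9 genes (highest-mean probe set) untreated (blue) and with ADR (red), with a grey line joining the arrays of 1 lymphoma and black bars for the mean and SD of 12. All panels span the same number of log2 units on axes of their own; Ezh2 falls in 12 of 12 lymphomas with a mean change of -1.42, while Ring1 stays level at -0.03.

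Among the PRC1 genes, Cbx2, a chromodomain subunit that binds methylated histone H3, was the one called. It ranged from 6.17 to 7.91 untreated (median 7.04) and from 5.45 to 6.78 with ADR (median 6.47), with 3 treated values below the lowest untreated one. The log2 change was -0.72 (SE 0.14, limma adjusted p = 0.00266), 1.65-fold lower, and it was lower in 12 of 12 lymphomas. The size differed between them, from -0.01 in 403 to -1.95 in 3769. Its second probe set fell as well (log2 change -0.53, adjusted p = 0.00264), although its level was 4.48 untreated and 3.96 with ADR.

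Cbx7 and Cbx8 encode other CBX subunits. Cbx7 ranged from 5.46 to 6.70 untreated (median 5.95) and from 5.18 to 6.93 with ADR (median 5.66). Lower values were seen in 10 of 12 lymphomas, but 1570 had 1.18 and 2581 had 0.43, and the log2 change of -0.20 (SE 0.14) did not pass (limma adjusted p = 0.354). Without 1570 it was -0.32 and passed (limma adjusted p = 0.0219), which makes 5 genes called lower. A second probe set, 1420039_s_at, was called lower (-0.33, adjusted p = 0.0336) with all 12 lymphomas, and the third lay in the weak range. Cbx8 ranged from 4.49 to 5.57 untreated (median 5.20) and from 4.54 to 5.55 with ADR (median 4.97), a log2 change of -0.17 (95% interval -0.36 to 0.01, adjusted p = 0.18). Its second probe set was in the weak range with -0.16.

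Bmi1 and Ring1 encode a pair of RING finger subunits of the ubiquitin ligase of PRC1. Bmi1 ranged from 7.73 to 9.36 untreated (median 8.88) and from 8.66 to 9.52 with ADR (median 8.94). It was higher in 8 lymphomas and lower in 4, from -0.54 in 403 to 0.99 in 1467, and the log2 change of 0.27 (95% interval -0.03 to 0.57) did not pass (limma adjusted p = 0.191); its second probe set had 0.20. Ring1 ranged from 6.59 to 7.31 untreated (median 6.85) and from 6.55 to 7.18 with ADR (median 6.83). Its log2 change was -0.03 with a 95% interval of -0.17 to 0.11, and it was lower in 8 lymphomas and higher in 4.

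**Figure D2:**
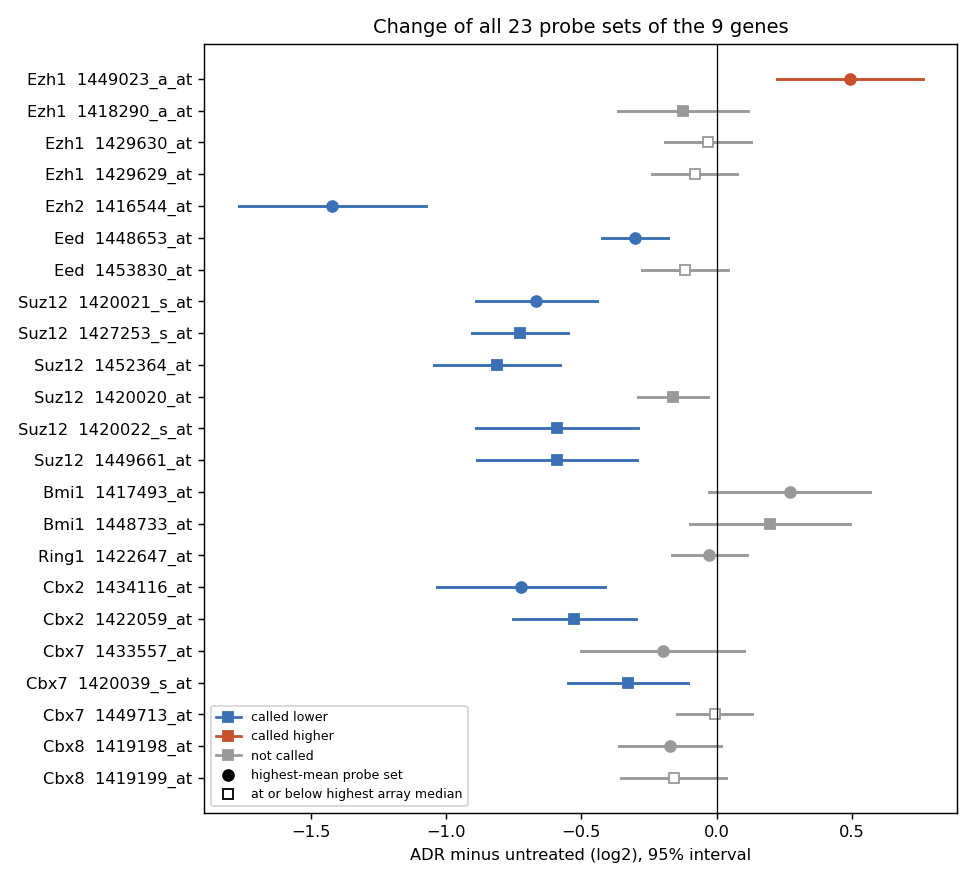
Change of each of the 23 probe sets as ADR minus untreated on the log2 scale, with the 95% interval from limma; circles mark the highest-mean probe set of a gene and open symbols those at or below 4.47 in both groups. The 10 probe sets called lower belong to Ezh2, Eed, Suz12, Cbx2 and Cbx7, and the 1 called higher to Ezh1.

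Over all 23 probe sets, 10 were called lower, 1 higher and 12 not, where 12.5% of all 34945 were called lower and 11.3% higher. Above the highest array median in at least 1 group were 18 of the 23, and the 5 others belong to Ezh1, Eed, Cbx7 and Cbx8. Probe sets of a gene share their transcripts and are not independent.

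The change of Ezh2 was compared with that of Ezh1 within each lymphoma, which needs no comparison of levels between probe sets. The Ezh2 change lay below the Ezh1 change in 12 of 12 lymphomas. The gap ranged from -0.93 in lymphoma 1467 to -2.90 in 2581, with a mean of -1.91 ± 0.54 (SD, n = 12, 95% interval -2.26 to -1.57). The exact two-sided sign-flip permutation test gave p = 0.000488, the smallest that 12 pairs allow. Lymphoma 1570, where Ezh2 moved least, had the largest Ezh1 change, so its gap of -1.43 lay inside the range of the others. Measured against the second Ezh1 probe set, a choice made after the data were seen, the mean gap was -1.30 (exact p = 0.00195), below 0 in 11 of 12 lymphomas and at 0.61 in the remaining one.

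**Figure D3:**
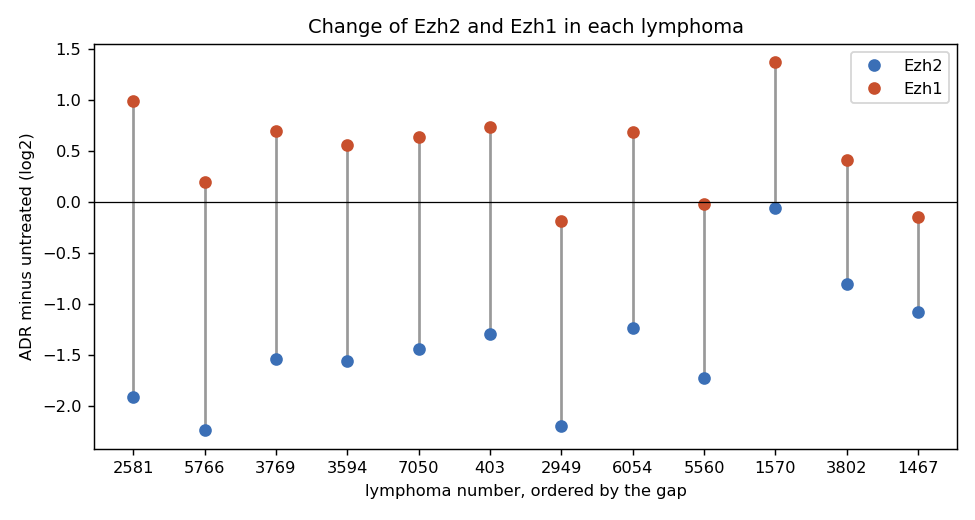
Change of Ezh2 (blue) and Ezh1 (red), ADR minus untreated in log2 units, in each of 12 lymphomas ordered by the gap between them. Blue lies below red in every lymphoma, with gaps from -2.90 (2581) to -0.93 (1467).

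Changes were compared in the same way for 9 more pairs, chosen after the values were seen and adjusted over all 10. Ezh2 fell more than Suz12 (mean gap -0.76 ± 0.65, SD, n = 12, in 11 of 12 lymphomas, exact sign-flip adjusted p = 0.00293) and more than Eed (-1.12 ± 0.56, in 11 of 12, exact adjusted p = 0.00244). The exception was in both cases lymphoma 1570. Suz12 fell more than Eed (-0.36 ± 0.35, in 10 of 12, exact adjusted p = 0.00814), and both lay below Ezh1 in 12 of 12 (mean gaps -1.16 and -0.80, exact adjusted p = 0.00163 each). Those values rest on the Ezh1 probe set that rose. Against its second probe set, a choice made after the data were seen, the Suz12 gap was -0.54 (below 0 in 9 of 12, exact sign-flip p = 0.0112) and the Eed gap -0.18 (below 0 in 8 of 12, exact p = 0.224), so the Eed gap no longer passed. In PRC1, Cbx2 fell more than Cbx7 (-0.52 ± 0.62, in 9 of 12, exact adjusted p = 0.0244) and than Cbx8 (-0.55 ± 0.67, in 8 of 12, exact adjusted p = 0.0244). Cbx7 and Cbx8 were not told apart (-0.03, 95% interval -0.49 to 0.43), nor Bmi1 and Ring1 (0.30, 95% interval -0.07 to 0.66).

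The mean change of the 4 PRC2 genes was -0.47 ± 0.28 (SD, n = 12) and that of the 5 PRC1 genes -0.17 ± 0.20, given without a test because the genes were chosen with earlier results known. PRC2 was lower than PRC1 by this measure in 11 of 12 lymphomas, with a mean difference of -0.30 ± 0.24, from -0.78 in 2949 to 0.14 in 3802. The PRC2 mean holds opposite changes by these probe sets. The rise of Ezh1 was that of its strongest probe set, and the mean of its 4 probe sets changed by 0.06 (limma adjusted p = 0.466). Leaving out Ezh1, the mean of Ezh2, Eed and Suz12 was -0.80 ± 0.29, below 0 in 12 of 12, and the difference from PRC1 was -0.63. Ezh2 (-1.42) weighs most in both PRC2 means. No mean was taken without it. Apart from Ezh2, the PRC2 genes changed by 0.49 (Ezh1), -0.30 (Eed) and -0.67 (Suz12), beside the PRC1 mean of -0.17. A fall of PRC2 against PRC1 apart from Ezh2 is therefore not shown.

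**Figure D4:**
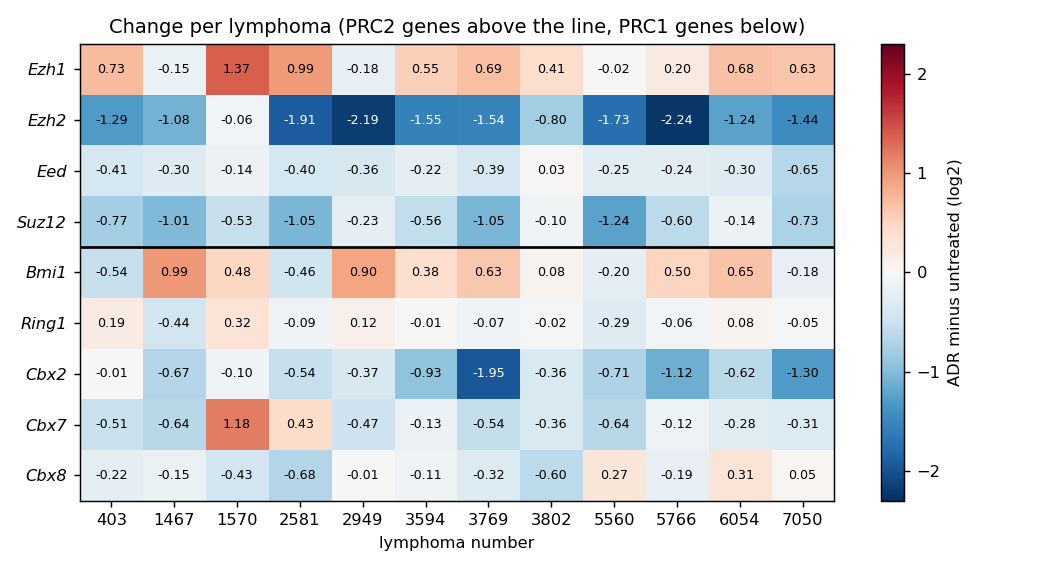
Change (ADR minus untreated, log2) of each gene in each of the 12 lymphomas, with blue for lower and red for higher and PRC2 genes above the black line. Ezh2 is blue in every column, palest in lymphoma 1570 at -0.06, where Cbx7 (1.18) and Ezh1 (1.37) are red.

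Lymphomas differed in which genes moved. In 1570 the PRC2 and PRC1 means were both above 0 (0.16 and 0.29), the highest of the 12 in each case. Lymphoma 3769 had the largest fall of Cbx2 but a usual fall of Ezh2 (-1.54), and 2949 had a large fall of Ezh2 (-2.19) with small ones of Suz12 (-0.23) and Cbx2 (-0.37). Correlations of changes are a description over 12 lymphomas that share arrays between genes. The change of Ezh2 had a Pearson r of 0.20 with that of Suz12, 0.40 with Eed and 0.52 with Ezh1. The change of Ezh1 had an r of 0.76 with that of Cbx7, picked as the highest among all pairs of the 9 genes. Lymphoma 1570 had the largest rise of both (1.37 and 1.18).

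The genes whose change over the 12 lymphomas was most like that of Ezh2, among 11357 others with a mean above the weak range, were Zfp318, Atrx, H2-Ke6, Zfp329 and Adamts6, with Pearson r from 0.95 to 0.88. Of these only H2-Ke6 was called changed (log2 change -0.40, adjusted p = 0.0388). For Ezh1 they were Tbc1d22a, Arel1, Rasgrf2, Lgals4 and Gm5617, with r from 0.93 to 0.89, of which only Rasgrf2 was called (log2 change 0.93, adjusted p = 0.000643). Both lists are the highest r among 11357 genes over only 12 lymphomas. Whether such values exceed what so many comparisons give was not tested, so the lists show no relation.

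The relation between the fall of the proliferation genes and that of Ezh2 did not pass. The mean change of the proliferation genes ranged from -4.05 in 2949 to -0.998 in 3802. With the Ezh2 change Pearson r was 0.392 (permutation p = 0.208) and Spearman rho 0.420 (permutation p = 0.175), with adjusted p = 0.716 and 0.591 over 27 relations; without 2949 and 3802 r was 0.013, and within the 7 lymphomas whose treated array files are named DOX it was 0.823 (exact permutation p = 0.0248). None of the 27 relations between the 9 genes and the proliferation, fibroblast or macrophage change passed, the lowest adjusted p being 0.278. The largest r was that of Bmi1 with the fibroblast change (-0.707, rho -0.685, permutation p = 0.0111 and 0.0168, adjusted p = 0.278 and 0.407); without 403 and 1467 it was -0.496, and within the DOX lymphomas -0.209. For Suz12 with the fibroblast change r was -0.514 (rho -0.538, permutation p = 0.0883 and 0.0753, adjusted p = 0.596 and 0.407), -0.840 without 403 and 1467, and -0.829 within the DOX lymphomas.

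The mean levels of the fibroblast, macrophage and neutrophil markers were higher with ADR in 12 of 12 lymphomas each, and for fibroblasts and macrophages the fit was repeated with those means as covariates. With the fibroblast mean Ezh2 had a change of -1.09 (limma adjusted p = 0.0561), Suz12 -0.37, Eed -0.22, Cbx2 -0.56 and Ezh1 0.38, none of them called, where 2.73% of all genes were called lower. Bmi1 had 0.84 and was called higher (adjusted p = 0.0349), the 1 member called in a fit that called 4.44% of all genes in either direction and 1.71% higher. With the macrophage mean Ezh2 had -1.31 (adjusted p = 0.174) and Suz12 -0.34. With both means Suz12 had -0.05, Cbx2 -0.17, Eed -0.24 and Ezh1 0.18, against -0.67, -0.72, -0.30 and 0.49 without them. Their 95% intervals with both means were wide: -0.55 to 0.45, -0.99 to 0.65, -0.59 to 0.12 and -0.58 to 0.93. Those of Cbx2, Eed and Ezh1 hold the change without the means, and that of Suz12 does not. Both means rose with ADR in 12 of 12 lymphomas, and the SE of Suz12 went from 0.10 to 0.23. For Cbx2, Eed and Ezh1 the fit therefore cannot tell an absent change from a poorly estimated one. For Suz12 the interval leaves out the -0.67 found without the means, but it holds both 0 and smaller falls. Ezh2 had -0.98 with both means (limma adjusted p = 0.381). With the proliferation mean Ezh2 had -0.85 (adjusted p = 0.293), Suz12 -0.85 and Bmi1 -0.48. These last 3 fits called 0 genes in all by limma, with 2399, 2234 and 3762 of 18193 at an unadjusted p under 0.05, among them Ezh2 and Eed in the first, Ezh2 and Bmi1 in the second and Suz12 in the third. How much of each change lies in the lymphoma cells was not tested.

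Treated array files are named sen for 5 lymphomas and DOX for 7, which may mark a batch. Ezh2 changed by -1.21 ± 0.73 (SD, n = 5) in the first and by -1.57 ± 0.51 (n = 7) in the second, and was lower in every lymphoma of both. Suz12 had -0.92 ± 0.27 and -0.49 ± 0.35, Cbx2 -0.41 ± 0.33 and -0.95 ± 0.57, Eed -0.30 in both, and Ezh1 0.58 ± 0.65 and 0.43 ± 0.32. Called separately, 1 of the 9 genes was lower in the sen set (Suz12, with 2.47% of all genes lower and 1.76% higher), and 5 were lower and 1 higher in the DOX set (with 8.34% lower and 8.64% higher). Limma's test of the difference between the sets called none of the 34945 probe sets; of the 9 genes, Suz12 alone had an unadjusted p under 0.05 (0.0342, adjusted p = 0.704).

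The other genes of the Polycomb system were counted from lists. Of 41 genes listed, 38 were measured, 11 were called lower and 1 higher, against the 12.5% and 13.4% of all genes, and their median change was -0.14. Among PRC2 accessory genes 4 of 8 fell: the histone-binding subunit genes Rbbp4 and Rbbp7, and Jarid2 and Mtf2, which bring PRC2 to its sites (Rbbp4 and Mtf2, and below Yaf2, L3mbtl2 and Usp7, are named after their values were seen). Jarid2 went from 7.99 ± 0.20 to 7.42 ± 0.36 (SD, n = 12, log2 change -0.57, adjusted p = 0.00539). Rbbp7 went from 11.61 ± 0.35 to 11.05 ± 0.33 (-0.56, adjusted p = 0.00275). In the fit with the fibroblast mean as a covariate Jarid2 had -0.33 and Rbbp7 -0.31, neither of them called (limma adjusted p = 0.513 and 0.473).

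Of the other canonical PRC1 genes 1 of 8 fell, the polyhomeotic gene Phc1 (log2 change -0.43, adjusted p = 0.0355), a share equal to the 12.5% of all genes. In the fit with the fibroblast mean Phc1 had -0.73 and was not called (limma adjusted p = 0.122). Rnf2, which encodes RING1B, the paralogue of RING1 that can take its place in the ligase, had -0.19 (adjusted p = 0.0777, with 2 of 5 probe sets lower), a gene named after its value was seen. In variant PRC1, which lacks CBX subunits, 5 of 13 fell: Kdm2b, E2f6, Yaf2, L3mbtl2 and Usp7. Kdm2b, which brings the complex to CpG islands, went from 9.51 ± 0.49 to 8.86 ± 0.49 (-0.64, adjusted p = 0.000363) and was lower in 12 of 12 lymphomas, and E2f6, which encodes a repressor of the E2F family, had -0.54 (adjusted p = 0.0292), lower in 8 of 12. With the fibroblast mean as a covariate the direction turned for E2f6 (0.30), Usp7 (0.12) and L3mbtl2 (0.02), none of them called, while Kdm2b had -0.33 (not called) and Yaf2 -0.71 (adjusted p = 0.0306). Of the genes that remove these marks 1 of 9 fell and 1 rose, shares near those of all genes. Asxl1, the partner of the H2A deubiquitinase, had -0.66 (adjusted p = 0.000473), lower in 12 of 12. Mbd6 had 0.47 (adjusted p = 0.00135), higher in 12 of 12. In the fit with the fibroblast mean Asxl1 had -0.54 and was not called (limma adjusted p = 0.156), while Mbd6 had 0.70 and was called (adjusted p = 0.0197). The H3 lysine 27 demethylase genes Kdm6a and Kdm6b, also named after their values were seen, had -0.07 and -0.21 and did not pass.

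**Figure D5:**
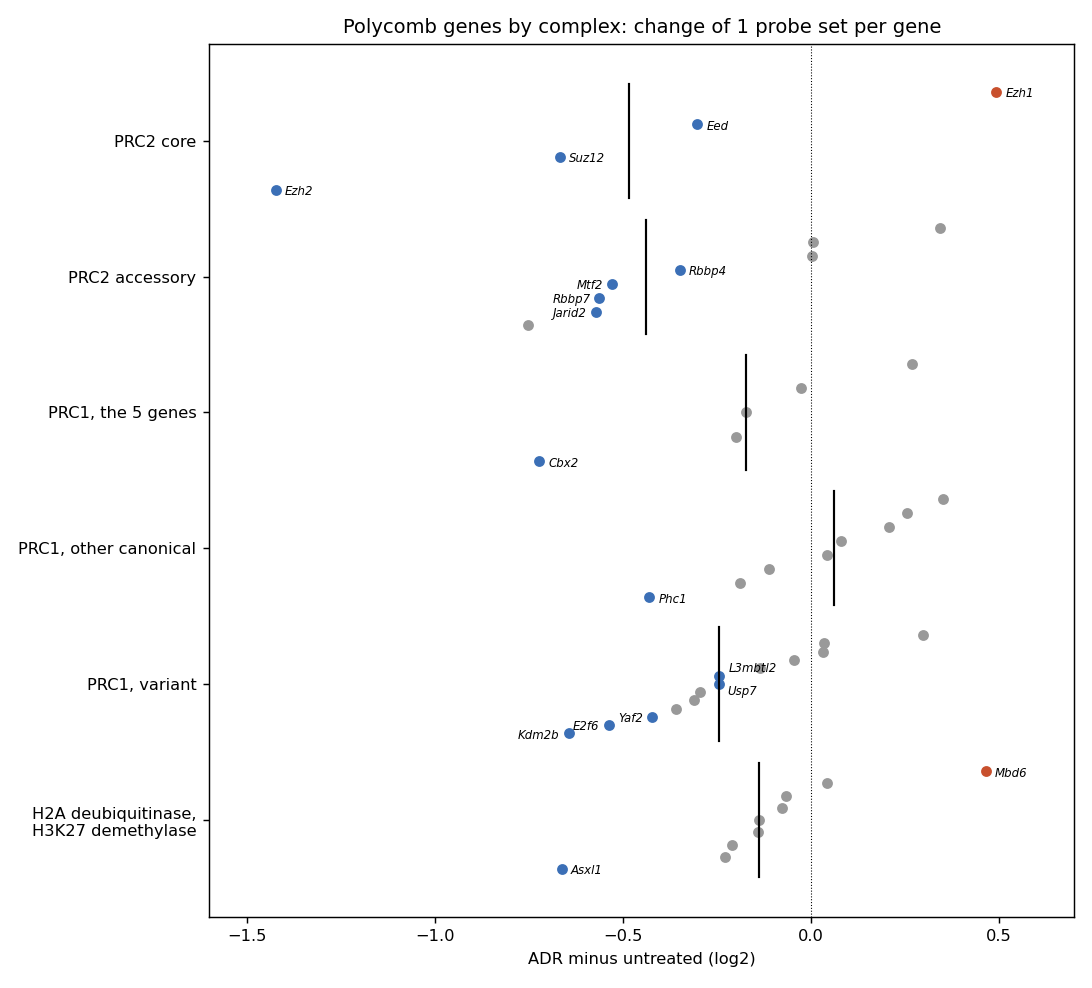
Change (ADR minus untreated, log2) of 1 probe set per gene, by complex; blue points were called lower, red higher and grey not called, and black bars mark the median of a list. Ezh2 at -1.42 has the largest fall of the genes shown, and medians run from -0.48 for the PRC2 core to 0.06 for the other canonical PRC1 genes.

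Genes known as Polycomb targets were mostly in the weak range and stayed there. Of 61 listed, 53 were measured and 42 of those lay at or below 4.47 in both groups, so a small rise could be missed in them. Called higher were 3 of 53 and lower 1 of 53, smaller shares than the 13.4% and 12.5% of all genes, and the median change was -0.01, so the calls are no result about the targets as a group. Hoxd8 went from 3.97 ± 0.15 to 4.82 ± 1.04 (SD, n = 12, log2 change 0.86, adjusted p = 0.0391) and Hoxd9 from 4.88 ± 0.15 to 5.24 ± 0.45 (0.36, adjusted p = 0.0479), both higher in 11 of 12. With the fibroblast mean as a covariate these were -0.55 and -0.17, not called. Gata4, named after its value was seen (0.28, adjusted p = 0.00963) stayed below 4.47 in its means, and Hoxb13 fell (-0.37, adjusted p = 0.0245).

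At the Cdkn2a and Cdkn2b loci no change passed. Cdkn2a ranged from 3.03 to 6.82 untreated (median 3.46) and from 3.22 to 7.32 with ADR (median 3.44), a log2 change of 0.08 (limma adjusted p = 0.532). It lay above the weak range in lymphomas 403 and 3594, in both conditions, and in no other lymphoma. Cdkn2b ranged from 3.15 to 6.41 untreated (median 3.58) and from 3.02 to 7.21 with ADR (median 3.68), a log2 change of 0.33 (adjusted p = 0.205).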

How the data were processed

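The deposited table holds log2 expression values of 45101 probe sets on 24 arrays, made by the authors with RMA in Partek, per the submitters' processing notes; versions are not given in the sources used here. Of these, 34945 probe sets name 1 gene in the platform annotation, and 34741 of them matched a RefSeq Entrez identifier; 932 with several genes, 9160 unnamed and 64 controls were left out. Array medians ran from 4.38 to 4.47, and no 2 arrays were identical. Arrays have no read depth, and their number limits the precision. ADR was compared with untreated in limma 3.58.1 (R 4.3.3), each lymphoma being a block, and each p-value received a Benjamini-Hochberg adjustment across 34945 probe sets. The lymphoma number in the sample titles gives the pairing. Deviations of paired arrays correlated at 0.257 to 0.589. In 10 of 12 lymphomas the untreated array correlated best with its own treated array, and in the others with that of another lymphoma. A gene is represented by its probe set with the highest mean. Changes of 2 genes were compared by exact sign-flip permutation (two-sided), and relations by two-sided permutation tests with 100000 resamples. The limma fit was tested on simulated data. Named by rule were the members, per list the 2 called genes with the largest rise and the 2 with the largest fall (the 2 largest changes where none was called), Cdkn2a, Cdkn2b, Mki67 and, for Ezh2 and Ezh1, the 5 genes with the highest r. Alternatives were other normalizations, filters, probe set choices, covariates, naming sets and left-out lymphomas. The members and lists were chosen with earlier results of these data known.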

Additional observations from a re-analysis of the deposited data

How the results depend on the processing

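Of 15 alternative fits, 10 kept the count of genes called lower within 1.5 times of 4. With the fibroblast, macrophage, both, or proliferation means as covariates it was 0, and in the sen lymphomas alone 1. The count called higher was 0 with the macrophage, both, or proliferation means, in the sen lymphomas, with the mean of all probe sets, and without the pairing (no replicate block); with the fibroblast mean it was 1, Bmi1 in place of Ezh1. The pairing cannot move the mean Ezh2 minus Ezh1 gap, -1.91 in both fits by construction; in the sen lymphomas it was -1.80 (exact sign-flip permutation p = 0.0625, the smallest that 5 pairs allow). The PRC2 minus PRC1 difference was -0.63 without Ezh1, and it was not taken without Ezh2. Changes that were not called turned sign for Ring1 (0.13 with the macrophage mean and with both means, 0.011 without lymphoma 1467), Cbx8 (0.20 with the macrophage mean, 0.12 with both) and Bmi1 (-0.48 with the proliferation mean). The cause was not tested. Leaving out each lymphoma in turn gave 4 to 5 genes lower, 1 to 1 higher, gaps between Ezh2 and Ezh1 of -2.004 to -1.83, Ring1 changes of -0.059 to 0.011, and PRC2 minus PRC1 differences of -0.34 to -0.26. Probe sets at or below 4.47 in both groups, 5 of the 23, limit what can be seen of their transcripts.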

Other observations

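Genes of H3 lysine 9 and DNA methylation, other systems that silence chromatin, were called lower in 8 of 13 measured cases, beside 12.5% of all genes, with a median log2 change of -0.42. Uhrf1, which brings the maintenance DNA methyltransferase to replicated DNA, went from 9.61 ± 0.56 to 7.84 ± 0.72 (SD, n = 12) and Cbx5, which encodes HP1 alpha, from 9.31 ± 0.48 to 8.05 ± 0.46, both lower in 12 of 12 lymphomas (limma adjusted p = 3.6e-05 and 2.6e-05). Replication genes were called lower in 18 of 19 cases with a median of -1.24, led by Pola1 (-2.002) and Tk1 (-1.83). Proliferation genes had a median of -2.17, with Kif11 at -2.74, Ccnb2 at -2.49 and the marker gene Mki67 at -2.35. The change of Ezh2, -1.42, lies between these medians, which is a description without a test.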
